A study of Drosophila melanogaster with 2 samples.

Results

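Heat shock genes encode the chaperones that cells make in quantity when heat or another stress unfolds their proteins, together with the factor that switches those chaperones on. The 10 genes described here were Hsp22, Hsp23, Hsp26, Hsp27, Hsp67Bc, Hsp68, Hsp70Aa, Hsp70Ba, Hsp83 and Hsf, taken as a named list out of 18277 annotated genes on the 7 chromosome arms. Each was examined over the gene and 5 kb either side. The binding data were chromatin immunoprecipitation followed by sequencing (ChIP-seq) of CG17328 fused to enhanced green fluorescent protein (CG17328-eGFP), pulled down through the fluorescent tag, in whole transgenic Drosophila melanogaster embryos aged 0 to 24 h. The 2 biological replicates formed the only group, the labels name no heat treatment, and no untagged or mock samples were analysed here, although the deposited listings name a control alignment among the inputs to the peak lists. Whole embryos mix all cell types of these stages, so a peak seen in many cells weakly and a peak seen in few cells strongly cannot be told apart.

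In Drosophila, the small heat shock proteins (Hsp22, Hsp23, Hsp26, Hsp27 and Hsp67Bc) hold unfolding proteins in a state from which they can be refolded, and the proteins of the Hsp70 family use ATP to refold them. Hsp83, the fly Hsp90, is made in unstressed cells too and keeps kinases and receptors in shape. Hsf, heat shock factor, forms trimers on stress and binds inverted repeats of GAA, the heat shock element, upstream of these genes. GAGA factor, which binds GAGAG repeats, and a paused RNA polymerase keep several of these promoters open before any stress.

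Peaks were read from the authors' conservative list of 5807 peaks for the whole series, from a second thresholded series list of 6152 peaks, from thresholded lists of replicate 1 (3713 peaks) and replicate 2 (4216 peaks), and from the longer ranked lists behind them, of which the series list holds 124555 candidates. Each peak has a signal, the authors' peak height. In the ranked lists it also has an irreproducible discovery rate (IDR, an estimate of how often peaks as good as this fail to replicate). An IDR of 0.01 or less is called past the threshold below. Series values are the authors' pooled values and have no error of their own. The replicates' values are given beside them, each in the scale of its own list, and no read counts were given, so the depth is unknown. Over the 2891 conservative peaks found in both replicates' thresholded lists (49.8% of the conservative peaks), the signal of replicate 2 was 1.24 times that of replicate 1 in the median (quartiles 1.04 and 1.46) and was higher at 78.8% of them. A peak counts as a promoter peak where 500 bp or less separate its summit from a start site of the annotation.

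Peaks past the threshold stood at the promoters of 4 of the 10 genes, Hsp27, Hsp83, Hsp26 and Hsp70Ba, and the Hsp70Ba peak was missing from the conservative list. In the conservative list, 3 of the 10 genes therefore had a promoter peak, beside 17.0% of all annotated genes (3106 of 18277) and 20.1% of the 13968 protein-coding genes. With ranked peaks past the threshold added, the count was 4 of 10, beside 17.4% of all genes. Within the gene and 5 kb either side, 8 of the 10 genes held a conservative summit, beside 48.1% of all genes, and 9 did when the ranked peaks were added, beside 48.7%. Neighbouring members share peaks, so these 9 genes rest on 11 distinct peaks, and 5 of the 11 lie nearest to the start of a gene that is not a heat shock gene (gry, Fdx1, Pisd, SMC1 and Spn55B). The genes were listed by name, not drawn at random, and no test was made over them.

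The 3 strong promoter peaks belonged to Hsp27, Hsp26 and Hsp83, and the stretches that carry them are shown with those of 2 Hsp70 genes, 1 with a promoter peak and 1 without. Each is read 5′ to 3′ in the direction of the gene from the RefSeq Release 6 genome (dm6), with every heat shock element match (GAANNTTC or TTCNNGAA) in capitals. The promoters run from 250 bases before the start site to 50 after it, and at Hsp83, whose promoter lies within the 5′ UTR of a longer transcript, only the element and its edges are shown. The last line holds 50 bases either side of the summit in the Hsp83 intron, which has no such match.
Hsp27 promoter (chr3L:9383813-9384112, plus strand): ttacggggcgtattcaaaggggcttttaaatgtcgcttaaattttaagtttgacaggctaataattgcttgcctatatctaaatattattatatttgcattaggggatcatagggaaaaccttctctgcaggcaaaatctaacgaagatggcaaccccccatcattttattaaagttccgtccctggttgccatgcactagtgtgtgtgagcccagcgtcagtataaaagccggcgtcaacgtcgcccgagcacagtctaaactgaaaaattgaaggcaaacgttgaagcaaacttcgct
Hsp26 promoter (chr3L:9377378-9377677, minus strand): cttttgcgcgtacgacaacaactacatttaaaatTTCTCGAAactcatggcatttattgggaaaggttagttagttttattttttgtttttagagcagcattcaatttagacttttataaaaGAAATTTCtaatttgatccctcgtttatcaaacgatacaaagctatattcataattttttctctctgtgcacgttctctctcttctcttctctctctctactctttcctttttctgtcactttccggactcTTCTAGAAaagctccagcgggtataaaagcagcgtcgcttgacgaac
Hsp70Ba promoter (chr3R:12467727-12468026, minus strand): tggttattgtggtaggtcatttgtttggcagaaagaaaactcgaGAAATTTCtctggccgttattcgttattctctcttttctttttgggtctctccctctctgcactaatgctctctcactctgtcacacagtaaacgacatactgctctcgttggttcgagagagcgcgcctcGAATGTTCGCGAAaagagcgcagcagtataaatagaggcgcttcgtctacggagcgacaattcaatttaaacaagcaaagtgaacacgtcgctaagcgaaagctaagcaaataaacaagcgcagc
Hsp70Aa promoter (chr3R:11956495-11956794, minus strand): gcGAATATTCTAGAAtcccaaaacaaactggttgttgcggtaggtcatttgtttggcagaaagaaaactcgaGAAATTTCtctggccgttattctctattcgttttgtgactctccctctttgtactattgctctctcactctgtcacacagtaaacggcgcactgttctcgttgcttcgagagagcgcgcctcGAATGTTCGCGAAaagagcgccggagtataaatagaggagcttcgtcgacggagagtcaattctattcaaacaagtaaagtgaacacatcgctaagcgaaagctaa
Hsp83 heat shock element (chr3L:3193137-3193166, plus strand): agaagcctctaGAAGTTTCtagagacttcc
Hsp83 intron summit (chr3L:3194203-3194303, plus strand): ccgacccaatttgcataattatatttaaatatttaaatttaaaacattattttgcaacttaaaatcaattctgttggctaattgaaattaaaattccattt

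The strongest of the peaks stood upstream of Hsp27 (FBgn0001226, chr3L:9384063-9385694, plus strand). It covered chr3L:9383800-9384016, 217 bp between genes, with its summit 161 bp before the start site. Its signal was 563 in the pooled list, 220 in replicate 1 and 346 in replicate 2 (283 ± 88.9, SD, n = 2), and its IDR was at the lower limit of the list (−log10 of 5) in the series and in both replicates. It ranked 137 of the 5807 conservative peaks, so that 97.6% of them were lower. Replicate 2 was 1.57 times replicate 1, a ratio above the upper quartile of shared peaks and exceeded by 16.8% of them, and the peak took rank 170 among replicate 1 peaks and rank 108 among replicate 2 peaks. The replicates' summits lay 25 bp apart. The same peak is the nearer of the 2 conservative peaks in the region of Hsp23, an ecdysone-responsive small heat shock gene (FBgn0001224, chr3L:9381882-9382765), whose start lies 2020 bp away on the far side from Hsp27. The other is the Hsp26 peak, 4334 bp before the Hsp23 start, and Hsp23 had no peak past the threshold at its own start.

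Hsp26 (FBgn0001225, chr3L:9376418-9377427, minus strand), whose protein is abundant in ovaries and early embryos, carried the next peak of the cluster. The peak at chr3L:9377466-9377632 was 167 bp wide and intergenic, and its summit stood 121 bp before the first of the gene's annotated starts and 173 bp before the other, farther downstream. The signal was 281 pooled, 126 in replicate 1 and 159 in replicate 2 (142 ± 23.6, SD, n = 2), at rank 524 of 5807. Both replicates placed the summit within 1 bp of each other, and both IDR values were at the limit. The replicates' ratio of 1.27 was close to the median of 1.24 over shared peaks, unlike that of Hsp27.

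Hsp22, a small heat shock protein found in mitochondria (FBgn0001223, chr3L:9372931-9374964, plus strand), has a long and a short transcript, and its peak lay between their starts. The peak at chr3L:9373308-9373623 had its summit 535 bp after the start at 9372931 and 531 bp before that at 9373997, in the 5′ UTR of the long transcript and the 3′ UTR of CG4456, the gene formerly listed as Hsp67Bb. Its signal was 181 pooled, 81.4 in replicate 1 and 104 in replicate 2 (92.8 ± 16.1, SD, n = 2), at rank 1153 with a −log10 IDR of 4.99. At these distances it was just outside the promoter window of either transcript in the conservative list. In the list of replicate 1 alone the summit moved 53 bp from that of replicate 2, to 9373536, and fell within 500 bp of the short transcript's start. The same peak was 969 bp before the start of Hsp67Bc (FBgn0001229, chr3L:9371511-9372497, minus strand), a small heat shock protein tied to autophagy.

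The last peak of the cluster, at chr3L:9370943-9371258, belonged by position to Fdx1, a ferredoxin gene. Its summit lay 43 bp before the nearest Fdx1 start, in an intron of the longer Fdx1 transcripts, and 1396 bp into the transcribed side of the Hsp67Bc start, beyond the end of that gene. The signal was 129 pooled, 56.5 in replicate 1 and 70.2 in replicate 2 (63.4 ± 9.72, SD, n = 2), at rank 1927. Hsp67Bc itself had a weak candidate 51 bp after its own start, with a signal of 38.4 and a −log10 IDR of 1.29, which does not reach the threshold of 2.

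Across the small heat shock gene cluster, from Hsp67Bc to Hsp27 (14.2 kb), the conservative list thus held 4 peaks, or 1.65 per 10 kb with the flanks, and their signals fell in the order Hsp27, Hsp26, Hsp22 and Fdx1 in the pooled list and in each replicate. Replicate 2 was the higher at all 4, as it was at 78.8% of the conservative peaks found in both replicates' thresholded lists. The replicates' values are each in the scale of their own list, so a comparison across replicates includes any difference of scale. The Hsp26 value of replicate 2 (159) lay below the Hsp27 value of replicate 1 (220), and the Hsp22 value of replicate 2 (104) lay below the Hsp26 value of replicate 1 (126), and the Fdx1 value of replicate 2 (70.2) lay below the Hsp22 value of replicate 1 (81.4), so the ranges of neighbours in this order did not overlap. Candidates below the threshold were low, at most 41.0 over Hsp67Ba, a further gene of the cluster, where the −log10 IDR was 1.04.

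**Figure D1:**
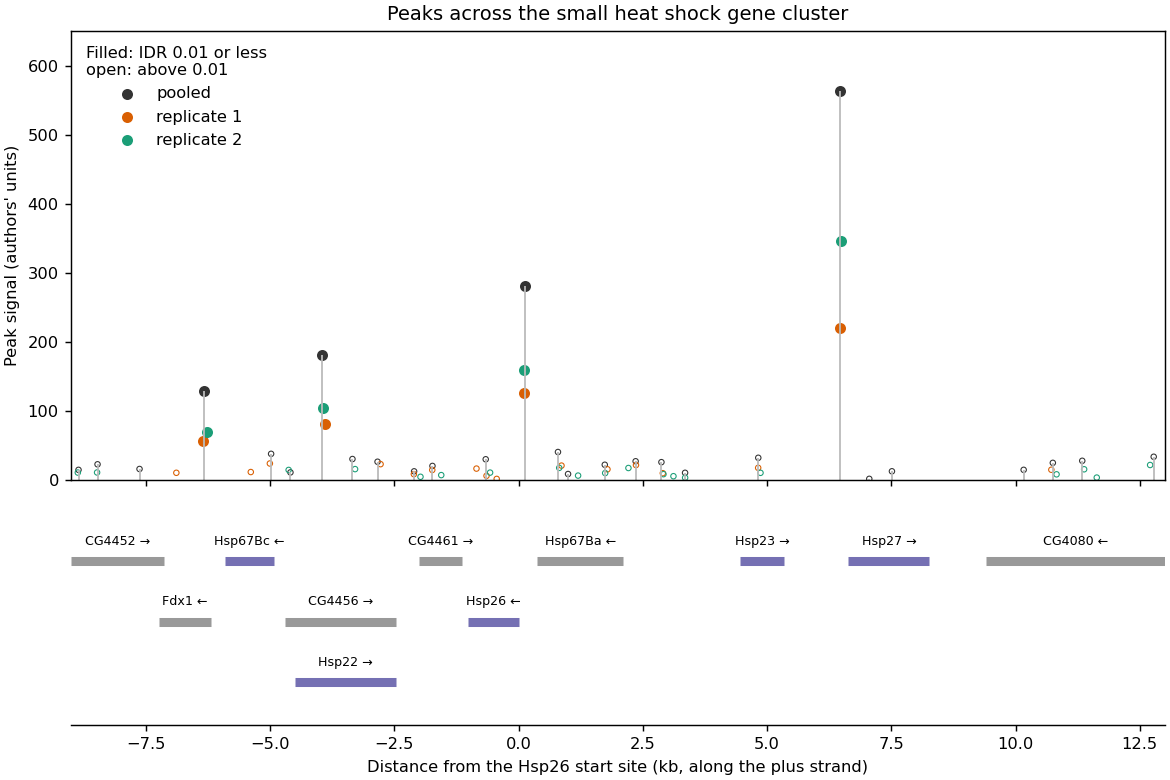
Peak signal (authors' units) against distance in kb from the Hsp26 start site across the small heat shock gene cluster, with protein-coding genes drawn to scale below (listed heat shock genes in purple, arrows for strand). Black points are pooled values, orange replicate 1 and green replicate 2, filled where the IDR was 0.01 or less; the 4 filled groups rise from Fdx1 (129 pooled) to Hsp27 (563 pooled), and open candidates stay low.

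Hsp83 (FBgn0001233, chr3L:3192969-3197059, plus strand), the Hsp90 gene, held 2 strong peaks of nearly equal height, both nearer to its own start than to any other. The first, at chr3L:3192996-3193214, had its summit 101 bp before the start at 3193216 and 146 bp after the start of the longer transcript at 3192969. Its signal was 435 pooled, 195 in replicate 1 and 233 in replicate 2 (214 ± 26.5, SD, n = 2), at rank 227 of 5807. The second, at chr3L:3194168-3194367, stood in the intron, 1037 bp after the start at 3193216. Its signal was 409 pooled, 171 in replicate 1 and 231 in replicate 2 (201 ± 42.5, SD, n = 2), at rank 258. In replicate 2 the intron and promoter peaks were close (231 and 233), in replicate 1 the promoter peak was higher, and the replicates' ranges for the peaks overlapped. The intron summits of the replicates were 2 bp apart and the promoter summits 26 bp apart.

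The third peak of the Hsp83 region was narrow, 79 bp at chr3L:3199097-3199175, and stood 27 bp after the start of the neighbouring gene gry, in its 5′ UTR. It had a signal of 167 pooled, 79.7 in replicate 1 and 86.2 in replicate 2 (82.9 ± 4.60, SD, n = 2) and ranked 1311. Both replicates listed it past the threshold. A candidate 43 bp before the start of CG14966, with a signal of 48.5, had a −log10 IDR of 1.37 and did not.

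The listed genes of the Hsp70 family, Hsp70Ba, Hsp70Aa and Hsp68, had no conservative peak within 500 bp of their starts. The Hsp70Ba peak (gene FBgn0013277, chr3R:12465453-12467776, minus strand) stood at chr3R:12467689-12468004, its summit 71 bp before the start. Its signal was 92.2 pooled, near the conservative list's median of 94.5, with a −log10 IDR of 2.08, and 3.55 in the other ranked series list. Replicate 1 gave 67.0 with a −log10 IDR of 3.98, and replicate 2 gave 25.7 with 0.81 (46.3 ± 29.2, SD, n = 2). The peak was therefore past the threshold in replicate 1 and not in replicate 2, and replicate 2 was 0.383 times replicate 1, the lowest ratio of the 11 peaks. None of the 4 thresholded lists held it. The thresholded lists have a further input, not described in the listings, which the ranked lists lack. The conservative list leaves out 137 ranked series peaks past the threshold, 84 of them on 3R. The thresholded lists of replicates 1 and 2 leave out 92 and 94 of their own ranked peaks. The ranked list of replicate 1 also held a candidate 3150 bp before the Hsp70Ba start, with a signal of 42.6 and a −log10 IDR of 2.41, again in no thresholded list. In the pooled ranked list that candidate had a signal of 47.7 and a −log10 IDR of 0.14, and the ranked list of replicate 2 held none there.

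The Hsp70 genes are near-identical copies, and reads that match several copies cannot be placed. Of 11 stretches of 50 bases taken across the 101 bp around the Hsp70Ba summit, 6 occurred elsewhere in the genome letter for letter, while none of 11 did at any of the other 10 peaks. The handling of such reads by the authors is not stated in the labels or listings, so the values at Hsp70 genes are uncertain, and the part of shared sequence in them was not tested. Hsp70Aa (FBgn0013275, chr3R:11954163-11956544, minus strand) had no candidate within 500 bp of its start in any of 4 ranked lists, and none past the threshold in its region. Its best candidate was at CG31211, with a signal of 25.7 and a −log10 IDR of 1.67. Among the other copies, Hsp70Ab had a candidate 40 bp after its start, with 45.1 pooled, 31.0 in replicate 1 and 13.9 in replicate 2. Replicate 1 was again higher. The −log10 IDR of the Hsp70Ab candidate was 0.22 in the series ranked list and 1.38 in the other ranked series list. It was 1.23 in replicate 1 and 0.058 in replicate 2. Hsp70Bb, Hsp70Bbb and Hsp70Bc had no such candidate. An absent candidate in such copies is not a sign that the protein is absent there.

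Hsp68 (FBgn0001230, chr3R:24055080-24057310, minus strand), a heat-inducible relative of Hsp70 that is not part of those copies, had no peak past the threshold at its start. Its region held 2 conservative peaks, each at the start of a neighbour. That at chr3R:24050681-24050996 lay 56 bp after the start of Pisd, a phosphatidylserine decarboxylase gene, with a signal of 77.7 pooled, 38.6 in replicate 1 and 35.6 in replicate 2 (37.1 ± 2.16, SD, n = 2). That at chr3R:24058110-24058425 lay 19 bp before the start of SMC1, a cohesin subunit gene, and 958 bp before the Hsp68 start, with 55.0 pooled, 29.9 in replicate 1 and 32.5 in replicate 2 (31.2 ± 1.79, SD, n = 2). They ranked 3676 and 5271 of 5807, and neither was past the threshold in either replicate's own list.

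**Figure D2:**
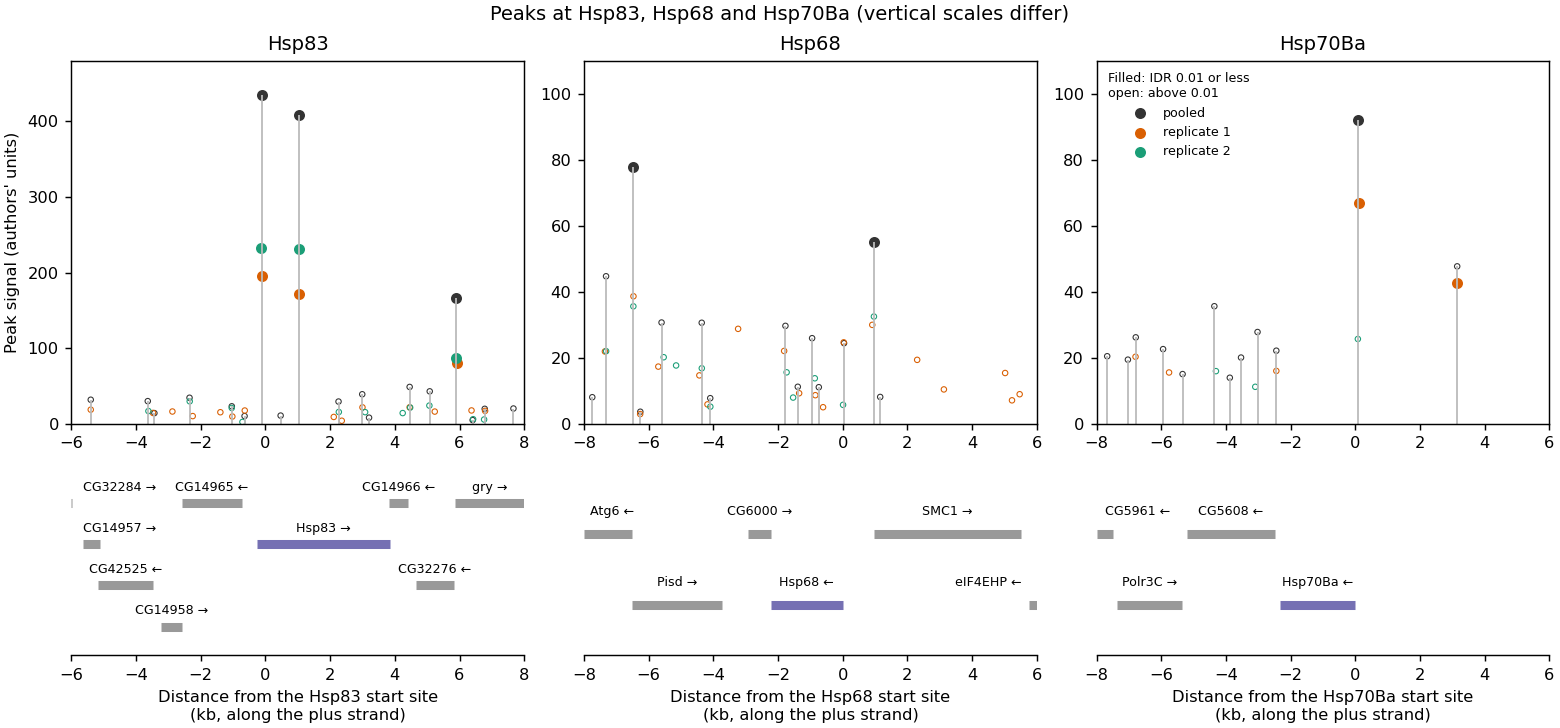
Peak signal (authors' units, a separate scale in each panel) against distance in kb from the start site of Hsp83, Hsp68 and Hsp70Ba, with protein-coding genes to scale below and colours and fills as in the cluster map. Hsp83 has filled points of all 3 kinds at its promoter, its intron and gry; at Hsp68 only pooled points are filled; at Hsp70Ba the pooled and replicate 1 points are filled and the replicate 2 point, at 25.7, is open.

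Hsf (FBgn0001222, chr2R:18130303-18134634, minus strand), the heat shock factor gene, had no peak past the threshold in the gene itself. The only conservative peak of its region, at chr2R:18126255-18126570, lay 66 bp after the start of Spn55B, a serine protease inhibitor gene, and 8221 bp from the Hsf start. Its signal of 50.6 was the lowest of the 10 conservative peaks and ranked 5481 of 5807. Replicate 1 gave 24.9 and replicate 2 29.7 (27.3 ± 3.40, SD, n = 2), with −log10 IDR values of 0.20 and 1.20. The other thresholded series list did not hold it. A candidate in the coding sequence of Hsf, 3067 bp after its start, reached 44.0 with a −log10 IDR of 1.43. Another candidate of the region, in the coding sequence of Dlip3, reached 56.4 with a −log10 IDR of 1.63. Its signal was above that of the Spn55B peak, but it was not past the threshold.

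Set side by side, 7 of the 10 conservative peaks were past the threshold in both replicates' own lists, beside 49.8% of all conservative peaks. The same number were above the conservative median of 94.5. The median signal of all 10 was 174. The 3 peaks that neither replicate listed past the threshold were the weakest, at Pisd, SMC1 and Spn55B, each beside a gene that is not a heat shock gene. Replicate 2 was higher than replicate 1 at 9 of the 11 peaks, near the 78.8% over the conservative peaks found in both replicates' thresholded lists. The exceptions were Hsp70Ba (0.383 times) and Pisd (0.921 times).

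**Figure D3:**
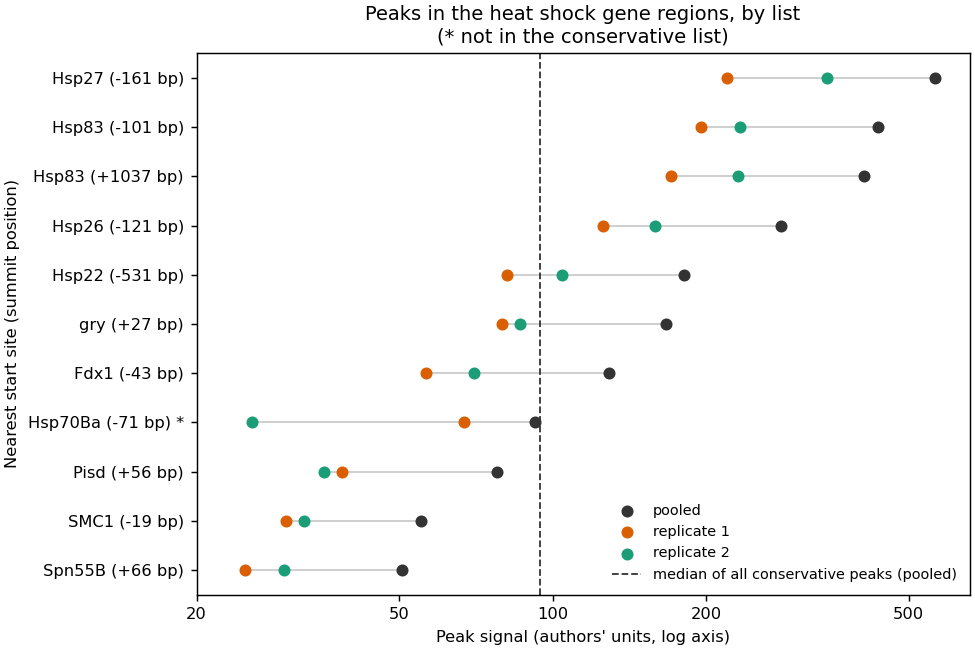
Peak signal (authors' units, log axis) for each of the 11 peaks, named by nearest start site and summit position, in the pooled list (black), replicate 1 (orange) and replicate 2 (green); the dashed line is the median of all conservative peaks, 94.5. Replicate 2 lies right of replicate 1 except at Hsp70Ba and Pisd, and the asterisk marks the Hsp70Ba peak, which the conservative list lacks.

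**Figure D4:**
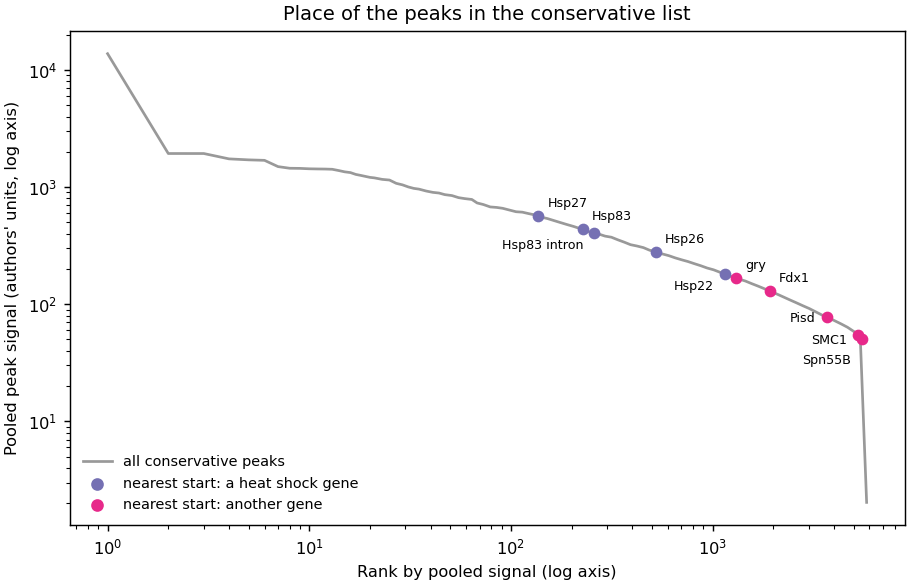
Pooled signal against rank over the 5807 conservative peaks (grey line, both axes log), with the 10 peaks of the heat shock gene regions marked in purple where the nearest start is a listed heat shock gene and in pink where it is another gene. The 5 purple points run from rank 137 to rank 1153 and the 5 pink points from rank 1311 to rank 5481.

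The 3 promoter peaks stood among genes of other kinds when all promoter peaks were ordered by pooled signal over 2223 distinct levels. Hsp27, at place 87, came between CBP (565) and the pair CG46429 and Sesn (561). Hsp83, at place 136, came between the pair CG7099 and Ing5 (437) and the pair CG4338 and Cp190 (427), the second of which encodes an insulator protein. Hsp26, at place 296, came between the pair MRP and Pih1D1 (283) and the pair CG32022 and CG6511 (281). Likeness here is 1 pooled value per gene and says nothing else of these neighbours.

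Matches to the heat shock element were counted near the summits and in the promoters. Within 50 bp, 2 of the 10 conservative peaks held a match, those at Hsp26 and at the Hsp83 promoter, beside 316 of all 5802 conservative summits on the arms (5.45%). The Hsp70Ba summit held 2 matches. Of the 4 promoters with a peak past the threshold, those of Hsp26, Hsp70Ba and Hsp83 held the word. At the start nearest to the summit there were 3 matches at Hsp26, 3 at Hsp70Ba and 1 at Hsp83. The other annotated start had 2 matches at Hsp26 and 0 at Hsp83. The strongest peak, at Hsp27, held none. The 300 bases of its promoter printed above have no match either, whereas 15.7% of 23697 annotated promoters of that length do. Sequence upstream of the Hsp27 peak was not searched. Among the genes with no promoter peak, Hsp68 had 6 matches in its promoter, Hsp70Aa 5, Hsp23 2, Hsp22 2 at its short transcript, Hsp67Bc 1 and Hsf 0, some of them overlapping, and at Hsp70Aa a missing peak is uncertain for the reason given above.

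GAGAG or its reverse complement occurred within 50 bp of 2 of the 10 conservative summits, beside 10.5% of all, and TATAAA within 50 bp of 2, beside 19.7%. Neither TATCGATA, the core of the DNA replication-related element, nor TATTTTAA, a further A+T-rich word, occurred near any of the 10, beside 1.15% and 5.10% of all conservative summits. TATTTTAA was the leading word of an earlier look at these same data, so its share over all summits is not independent of them. The promoters of Hsp26 and Hsp70Ba printed above hold 6 and 8 GAGAG matches, counting both strands and overlaps, and 32.4% of annotated promoters hold at least 1. Among promoters with no peak past the threshold, there were 6 matches at Hsp70Aa, 5 at the short Hsp22 transcript, 1 at the long Hsp22 transcript and 1 at Hsp23, and those of Hsp67Bc, Hsp68 and Hsf held none. The promoters of Hsp27 and Hsp83 hold none. The G+C content within 50 bp ranged over the 10 peaks from 20.8% in the Hsp83 intron to 46.5% at the Hsp83 promoter and at Spn55B (33.9% ± 9.70, SD over peaks, n = 10), beside 35.8% ± 10.9 over all 5802 summits, and was 52.5% at Hsp70Ba.

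Among 34 other chaperone and heat shock genes, 6 had a conservative promoter peak, 17.6% beside 17.0% of all genes and 20.1% of protein-coding genes. That share was near the background in this list and window, and it differed in other lists and windows (given below). By role, the 6 genes were 2 of 6 constitutive Hsp70 relatives, 1 of 7 Hsp90 relatives and cofactors, 3 of 10 chaperonins, 0 of 9 other heat-inducible genes and 0 of 2 small heat shock relatives. Hsc70-5, the mitochondrial Hsp70, was highest at 155 pooled (60.5 in replicate 1 and 92.7 in replicate 2). Gp93, the Hsp90 of the endoplasmic reticulum, reached 126 (44.6 and 73.5), and Hsc70-4, the main cytosolic Hsc70, reached 104 (47.9 and 55.9). Of the subunits of the cytosolic chaperonin, CCT8 reached 123 (54.9 and 70.4), CCT5 99.2 (42.0 and 60.7) and CCT3 78.8 (50.1 and 32.6). All 6 were below the Hsp26 peak of 281 in the pooled list. The replicate 1 value of Gp93 and the replicate 2 value of CCT3 were not past the threshold in those replicates' lists, and the peaks of Hsc70-5, Hsc70-4, CCT8 and CCT3 stood also within 500 bp of another gene's start.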

How the data were processed

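Peak lists of 2 ChIP-seq samples in 1 group were analysed. The authors deposited, on dm6 per the file headers and listings, ranked and thresholded lists per sample and for the series. In each deposited list the score follows the IDR, the signal is a peak height and a −log10 column holds q-values. The −log10 IDR (capped at 5) was read from the ranked lists. All these values are the authors'. Aligner, peak caller and the scaling of samples to each other are not stated there. The 8 further per-sample columns of each series ranked list were not used.

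Genes and start sites came from Ensembl release 115 without transposable elements, and sequence from the RefSeq copy of the same assembly (Python 3.11.15, pandas 2.3.3). Lists shared a peak at 1 bp of overlap. Functions were checked on simulated data. The members and lists were chosen with earlier results of these data known, and 4 listed symbols were replaced by current ones. Genes named are the 10 members, other chaperones with a promoter peak, genes nearest in promoter signal, and the gene nearest each peak; candidates below the threshold were chosen after their values were seen. No test was made, since there is 1 group. The labels call the replicates biological without saying whether they were separate collections, so their spread may be partly technical.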

Additional observations from a re-analysis of the deposited data

How the results depend on the processing

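With a promoter window of 1000 bp, 6 of the 10 genes had a conservative promoter peak, since Hsp22 (531 bp), Hsp67Bc (969 bp) and Hsp68 (958 bp, the SMC1 peak) came in, and 21.1% of all genes did. With 250 bp the share of all genes was 13.3% and the members' count 3. In the stronger 50% of conservative peaks the share was 9.78%, again with 3 members. The single replicates' own lists gave 12% to 13.2% of all genes and 3 to 4 members, the fourth being Hsp22. Within 25 bp of the summits 1 heat shock element match was found in place of 2. No ranked peak that the conservative list lacks in these regions had a −log10 IDR of 3 or more (0 in place of 1), so the Hsp70Ba peak rests on the lower threshold in that ranked list. The members' share with a promoter peak was above that of all genes at every setting. For the 34 other chaperone genes the comparison reversed at 250 bp, where 4 of 34 was below the 13.3% of all genes. At the other settings their share was above that of all genes, noncoding genes included. In the main setting it was below the 20.1% of protein-coding genes, a share not computed at the other settings. It was 9 of 34 at 1000 bp, 8 in the other thresholded series list and 5 in the stronger 50%. The lists of replicates 1 and 2 gave 8 and 5. In each replicate's own list, 6 members in place of 8 had a peak in their region, because those near Hsp68 and Hsf were in neither replicate's list. No paired analysis was possible because there is 1 group. Depth is unknown, and the pooled values carry no error.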

Other observations

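The heat-inducible noncoding locus lncRNA:Hsromega, whose transcripts gather in nuclear speckles after heat shock, resembled Hsp70Ba in the lists. It had 2 ranked peaks past the threshold, and no peak in the conservative list or in either replicate's thresholded list. The second thresholded series list was not examined at this locus. The first stood 187 bp after its start, with a signal of 109 pooled, 45.4 in replicate 1 and 68.5 in replicate 2 and a −log10 IDR of 3.72. The second stood 1025 bp after another annotated start of the locus, farther downstream. It had 87.6 pooled, 37.0 in replicate 1 and 48.3 in replicate 2, and a −log10 IDR of 3.14. Unlike at Hsp70Ba, replicate 2 was the higher at both.

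The Hsp70B cluster with its flanks (56.0 kb of 3R) held 19 ranked candidates, of which 2 were past the threshold. None was in the conservative list or in either replicate's thresholded list. The second thresholded series list was not counted over the whole cluster. Of the 2 past the threshold, 1 was the Hsp70Ba peak. The other stood 826 bp after the start of lncRNA:alphagamma-element:CR32865, a noncoding element of the cluster. Its signal was 77.8 pooled, 37.5 in replicate 1 and 42.8 in replicate 2.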
